A study of Mus musculus with 6 samples.

Results

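The mitochondrial carrier family comprises the Slc25a genes and the uncoupling protein genes Ucp1 and Ucp3, measured here by arrays in leukaemic mouse B cells with and without gamma-catenin (Jup). Members were all genes whose symbol begins with Slc25a and a digit, or is Ucp1, Ucp2 or Ucp3, and that had a probe set assigned to exactly 1 gene. Where a gene had several such probe sets, the one with the highest mean over the arrays stood for it. This gave 48 of 19938 such genes, and Ucp2 is not analysed here. The rule used symbols and mean signal and not the comparison between genotypes, but earlier results of these data were known when the family was chosen.

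The cells came from mice of the C57BL/6 background. Hosts carrying CD45.1 had received CD45.2 fetal liver cells of Jup-/- or Jup+/+ embryos, and the marrow of these chimeras was infected with a retrovirus encoding the kinase fusion BCR-ABL1 and green fluorescent protein, then placed in irradiated CD45.1 hosts. At day 21, fluorescent CD45.2+ B220+ BP-1+ cells were sorted from bone marrow, with 3 knockout (KO) and 3 wild-type (WT) samples on 1 array each. Both genotypes therefore carried BCR-ABL1, and neither the age and sex of the donors nor any pooling of animals is given in the sources used here. The labels call the samples biological replicates and do not say which of them share a chimera, so the p-values measure the spread between these samples.

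Members of this family are proteins of the inner mitochondrial membrane, with a few in the outer membrane or in peroxisomes, built from repeated pairs of membrane-spanning helices. Most exchange a metabolite of the matrix for one of the cytosol, such as ADP for ATP, aspartate for glutamate, or citrate for malate. They thereby link cytosolic metabolism with respiration, nucleotide and amino acid synthesis and haem formation, and the uncoupling proteins let protons return without ATP synthesis. The proteins are made in the cytosol and reach the inner membrane through the TOM complex, small TIM chaperones and the TIM22 complex.

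Promoter windows are shown first for the ADP/ATP carriers, whose signals lay at both ends of the family, then for the aspartate/glutamate carrier pair, whose ratio did not overlap between genotypes in the deposited values, and for Slc25a42, the 1 member with an unadjusted p under 0.05. These genes were picked after their values were seen. Each window runs from upstream of the gene start into the first transcribed bases, 300 bases in all, read 5′ to 3′ along the gene's strand from RefSeq. Letters are in lower case, and capitals mark matches on either strand to the motifs of NRF1 (core letters GCATGCGC), ETS factors (CCGGAAGT), CREB (TGACGTCA), E-box factors (CACGTG) and the TATA box (TATAAA).
Slc25a5 (GRCm38.p6, chrX:36795347-36795646, plus strand): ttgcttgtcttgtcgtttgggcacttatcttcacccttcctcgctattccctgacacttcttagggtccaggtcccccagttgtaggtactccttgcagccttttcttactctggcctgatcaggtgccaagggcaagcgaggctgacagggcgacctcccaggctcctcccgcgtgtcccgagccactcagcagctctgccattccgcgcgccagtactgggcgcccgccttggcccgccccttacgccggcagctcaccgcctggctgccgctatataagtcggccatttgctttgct
Slc25a4 (GRCm38.p6, chr8:46211013-46211312, minus strand): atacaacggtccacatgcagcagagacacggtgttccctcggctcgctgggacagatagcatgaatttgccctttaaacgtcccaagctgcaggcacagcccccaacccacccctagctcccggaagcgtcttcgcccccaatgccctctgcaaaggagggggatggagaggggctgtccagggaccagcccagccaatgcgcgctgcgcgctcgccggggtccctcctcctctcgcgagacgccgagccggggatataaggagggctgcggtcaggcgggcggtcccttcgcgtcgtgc
Slc25a31 (GRCm38.p6, chr3:40708621-40708920, plus strand): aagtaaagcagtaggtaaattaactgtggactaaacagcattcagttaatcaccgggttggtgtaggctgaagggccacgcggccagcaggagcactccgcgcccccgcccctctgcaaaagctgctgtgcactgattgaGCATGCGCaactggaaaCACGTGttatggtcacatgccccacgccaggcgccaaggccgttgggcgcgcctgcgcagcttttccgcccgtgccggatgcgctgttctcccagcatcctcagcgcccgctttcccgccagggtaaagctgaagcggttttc
Slc25a12 (GRCm38.p6, chr2:71367706-71368005, minus strand): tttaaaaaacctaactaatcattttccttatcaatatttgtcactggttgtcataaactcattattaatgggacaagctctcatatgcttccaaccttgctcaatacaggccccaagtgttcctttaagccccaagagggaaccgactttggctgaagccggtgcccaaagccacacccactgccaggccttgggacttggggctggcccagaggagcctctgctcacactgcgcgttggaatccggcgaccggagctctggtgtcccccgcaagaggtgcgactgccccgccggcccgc
Slc25a13 (GRCm38.p6, chr6:6217124-6217423, minus strand): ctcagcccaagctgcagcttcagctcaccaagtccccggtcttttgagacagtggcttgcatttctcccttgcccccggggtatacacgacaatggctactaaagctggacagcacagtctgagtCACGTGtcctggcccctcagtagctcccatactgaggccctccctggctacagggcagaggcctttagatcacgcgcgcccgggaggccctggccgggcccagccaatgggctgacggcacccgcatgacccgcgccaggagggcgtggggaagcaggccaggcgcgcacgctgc
Slc25a42 (GRCm38.p6, chr8:70212232-70212531, minus strand): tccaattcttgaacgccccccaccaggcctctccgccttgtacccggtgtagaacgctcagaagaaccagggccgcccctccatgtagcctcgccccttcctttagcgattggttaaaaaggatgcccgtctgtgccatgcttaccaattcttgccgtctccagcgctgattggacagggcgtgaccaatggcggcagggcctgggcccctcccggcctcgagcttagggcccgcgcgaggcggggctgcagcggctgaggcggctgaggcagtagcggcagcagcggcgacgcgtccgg
The window of Slc25a31 held 1 NRF1 and 1 E-box match and that of Slc25a13 an E-box match, and the other 4 windows held none of these letters. RefSeq windows were found for 38 of the 48 members, 48 windows in all, among which matches of different motifs overlapped in 0 cases. An E-box was present in 8 of the 48 windows (16.7%) and in 7.15% of 32817 mouse promoter windows of this length. NRF1 matches were in 2 member windows (4.17%, against 2.71% of all), ETS in 1 (2.08% against 3.89%), CREB in 2 (4.17% against 1.79%) and TATA in 2 (4.17% against 13.6%). Windows of a gene with several starts can overlap, and a match is a description of the letters only.

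The checks of the arrays were as follows. Jup measured 7.04, 7.06 and 7.27 in KO and 8.04, 7.62 and 8.51 in WT, without overlap (log2 difference -0.93, limma adjusted p = 0.171), which checks the labels in part. Array medians were 7.53 to 7.61 (log2). Of 11 listed B cell markers 10 were measured, with a median signal of 12.36, among them Cd79a, Pax5 and Enpep (BP-1). Xist was at 6.20 in WT replicate 2 and at 13.03 to 13.38 in the other arrays, and Kdm5d of the Y chromosome was at 8.57 there and at 4.72 to 5.55 in the others, the pattern of a male donor, which no KO array had. Of 15 myeloid markers 13 had a higher KO mean, and their mean signal was 8.67 to 8.78 in KO and 7.82 to 8.34 in WT. At an unadjusted p under 0.05 in limma 11 were higher and 0 lower, beside 4.48% higher among all probe sets. After adjustment 3 were called higher, beside 0.0505% of all probe sets. These were Mpo by 1.605 (limma adjusted p = 0.0051), Ctsg by 1.14 (0.0128) and Elane by 1.24 (0.0307). Mature B cell markers had a higher KO mean for 8 of 8 measured genes, by 0.016 to 1.29 (median 0.35). They averaged 8.64 to 8.91 in KO and 8.12 to 8.54 in WT. The largest differences were those of Ms4a1 (1.29, limma adjusted p = 0.178) and Cd22 (1.28, limma adjusted p = 0.1055). At an unadjusted p under 0.05 in limma 3 were higher, beside 4.48% of all probe sets, and 0 were called after adjustment. The part of myeloid or more mature cells or of donor sex in any value below was not tested. In sorted cells measured in bulk, fewer cells of a type and less RNA per cell cannot be told apart.

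The carriers spanned almost the whole range of the array signal. Signals of different probe sets depend on their probes and are not transcript numbers, so the order below is one of signal. Slc25a5, the main ADP/ATP carrier of dividing cells, came first with a mean of 13.18 (SD 0.05 over 6 arrays, 99.5th percentile of all probe sets). Slc25a3, the phosphate carrier that supplies the ATP synthase, followed at 13.05, then came a gap to Slc25a11 (2-oxoglutarate/malate) at 11.49, Slc25a4 (the ADP/ATP carrier of heart and muscle) at 11.44, Slc25a1 (citrate) at 11.37, Slc25a36 (pyrimidine nucleotides) at 11.34, Slc25a12 (aspartate/glutamate) at 11.16 and Slc25a17 (the peroxisomal carrier of coenzyme A and related cofactors) at 10.91. Of the 48 members, 32 lay above the array median on all arrays and 13 below it on all arrays.

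Olfactory receptor genes served as a reference for transcripts not known from B cells. Their 1035 probe sets had a median of 4.88 to 4.96 and a 95th percentile of 6.64 to 6.84 per array. By that measure 39 carriers were above the reference on all arrays. The 7 that stayed below it on all arrays were Ucp3, Slc25a48, Slc25a41, Ucp1, Slc25a54, Slc25a21 and Slc25a31, and Slc25a34 and Slc25a2 lay on both sides of it. Ucp1 is the thermogenic protein of brown fat and Slc25a31 the ADP/ATP carrier of male germ cells. For these 7 the array gave no level apart from that of genes not known from B cells.

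Neighbours in the order were often not separable. Of the 47 neighbouring pairs, 18 differed by more than the larger of the 2 SDs over arrays, a spread that leaves out differences between probes. The widest gap was that between Slc25a3 and Slc25a11, at 1.56 (log2). The order of Slc25a5 and Slc25a3 depended on the probe set, since 1 of the 3 probe sets listed for Slc25a5 had a mean of 12.71, below that of Slc25a3. The place of Slc25a36 did as well, since its other probe set had a mean of 10.79, below the 10.91 of Slc25a17. Slc25a11 and Slc25a4 did not differ beyond their spread, nor did Slc25a37 and Slc25a39.

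**Figure D1:**
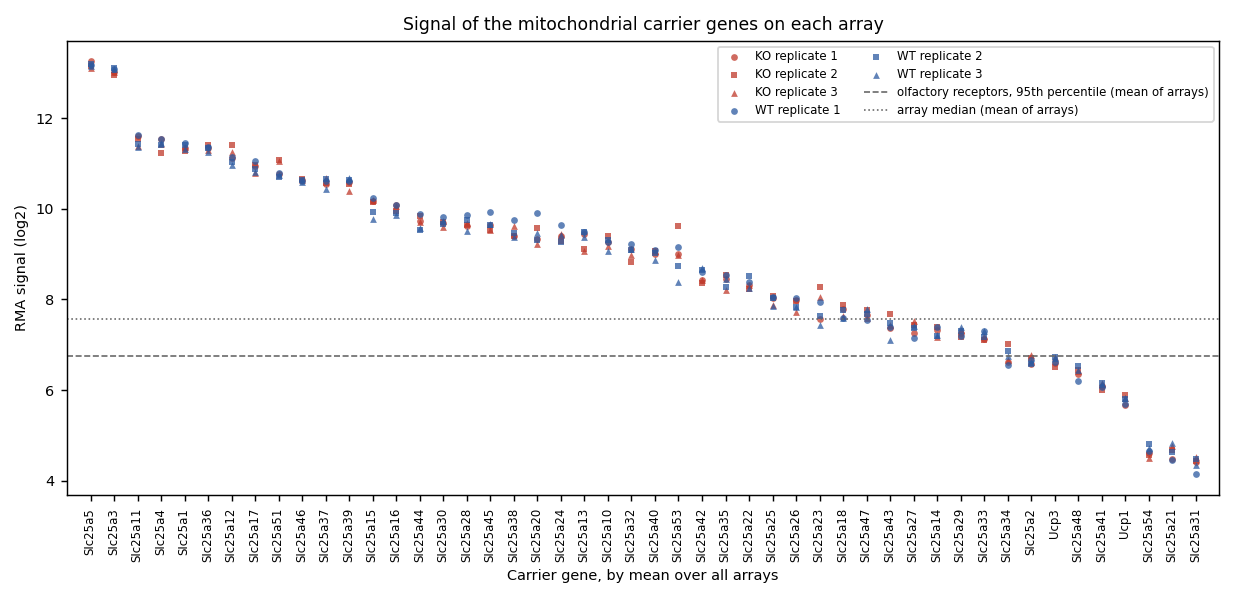
RMA signal (log2, vertical axis) of the 48 carrier genes on each of 6 arrays, ordered by mean; red symbols are KO and blue symbols WT arrays, the dotted line is the mean array median and the dashed line the mean 95th percentile of olfactory receptor genes. Slc25a5 and Slc25a3 lie near 13, and 7 genes stay under the dashed reference on all arrays.

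The ratio of observed to expected CpG dinucleotides had a median of 0.58 over the 48 windows of 38 members, from 0.04 to 1.12, and of 0.38 over all promoter windows. It was 0.67 for Slc25a5, 0.78 for Slc25a4 and 0.83 for Slc25a31, whose signal was the lowest of the family. No test was made of these ratios.

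None of the 48 carriers was called different between KO and WT at an adjusted p under 0.05 (limma, Benjamini-Hochberg over 21789 probe sets). Among all probe sets 0.119% were called, 0.0505% higher and 0.0688% lower. At an unadjusted p under 0.05, 0 members were higher and 1 was lower (2.08%), beside 4.48% higher and 4.73% lower among all probe sets. The median log2 difference, KO minus WT, was -0.0028 over the members and -0.016 over all probe sets, and 25 of 48 members had a lower KO mean (52.1%, against 55.8% of all). The differences ran from -0.25 for Slc25a42 to 0.44 for Slc25a53, with standard errors of 0.068 to 0.22. In 31 members the difference was under 0.1 in size and in 6 over 0.2.

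Intervals show what size of change these arrays leave room for. For 45 of the 48 members the 95% interval of the difference, not adjusted for the number of genes, lay within 0.5 on either side of 0 on the log2 scale. The 3 others were Slc25a20, Slc25a53 and Slc25a23. Among the 45 were the 7 carriers below the olfactory receptor reference on all arrays. RMA compresses changes of dim transcripts, so the intervals of these 7 set no limit on a change in their transcripts. In 4 members (8.33%) all KO arrays lay below all WT arrays, namely Slc25a3, Slc25a39, Slc25a42 and Slc25a54, beside 8.08% of all probe sets. In 0 members did all KO arrays lie above all WT arrays, beside 5.94% of all probe sets. Leaving out WT replicate 1 changed the counts at an unadjusted p under 0.05 to 4 higher and 2 lower, and leaving out KO replicate 1 to 3 and 3, with 0 members past the adjusted threshold in either case.

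**Figure D2:**
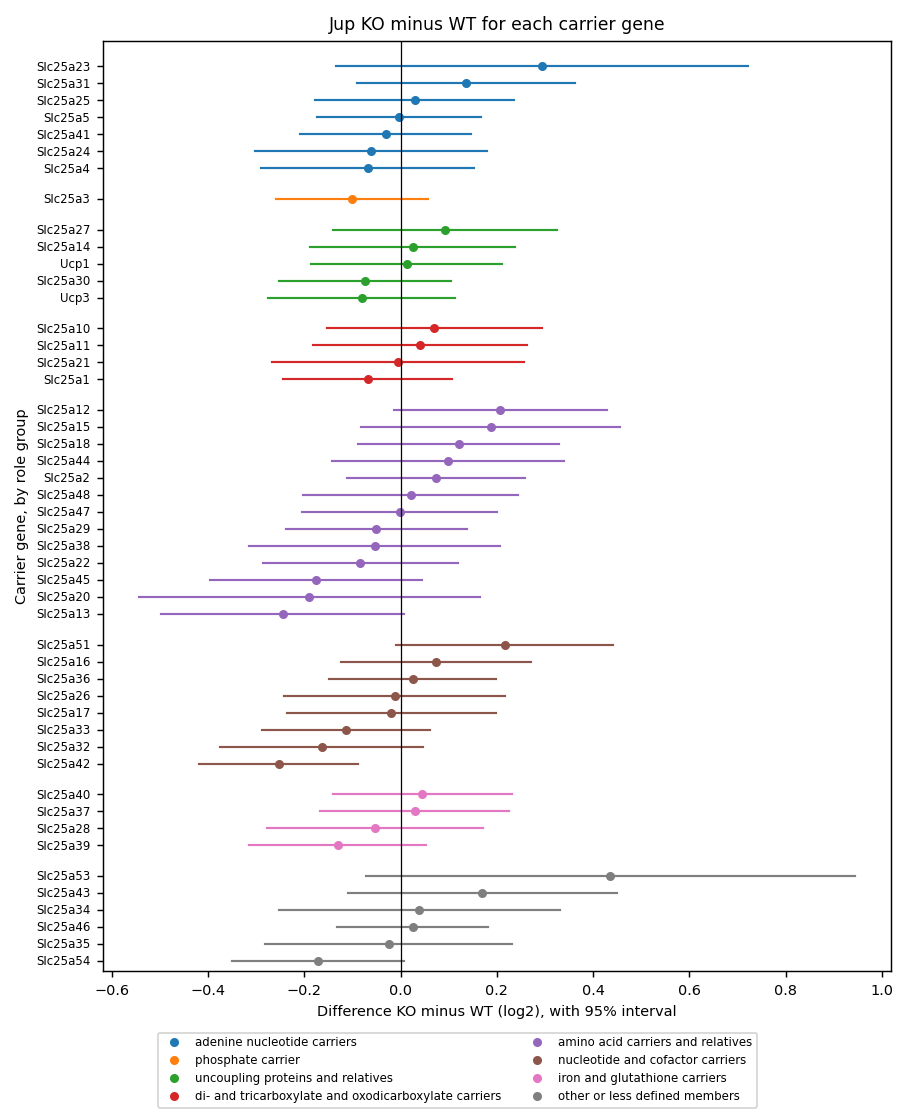
Difference KO minus WT (log2, horizontal axis) of each carrier gene with its 95% interval from limma, grouped and coloured by role. The interval excludes 0 for 1 gene, Slc25a42.

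No difference between genotypes was detectable in the adenine nucleotide carriers. Slc25a5 measured 13.26, 13.15 and 13.12 in KO and 13.19, 13.21 and 13.14 in WT, so the groups overlapped fully. Its difference was -0.0038 (SE 0.075), with a 95% interval from -0.17 to 0.17, and its sign turned with quantile normalization, with median centring and when single arrays were left out. All 3 probe sets listed for Slc25a5 carry the same accession, had means of 12.71 to 13.18 and gave differences of -0.031 to -0.0038. Probe set numbers ran by chromosome for the main probe sets of members other than Slc25a5 and Slc25a36. By number, 1 of the 3 lay beside Slc25a43 on the X chromosome, where RefSeq places Slc25a5. It measured 13.24, 13.15 and 13.13 in KO and 13.18, 13.22 and 13.14 in WT (difference -0.0098, SE 0.073). The main and the dimmest probe set were numbered away from the X members and may lie at near-identical copies elsewhere in the genome. Probe coordinates were not available here, so the signal of 13.18 may not come from this gene alone. Slc25a4 measured 11.55, 11.23 and 11.42 in KO and 11.54, 11.41 and 11.46 in WT, with KO replicate 2 the lowest (difference -0.068, SE 0.097). Without that array its sign turned, to 0.016. Slc25a31, below the olfactory receptor reference, was at 4.41, 4.43 and 4.53 in KO and 4.14, 4.47 and 4.35 in WT.

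The calcium-regulated carriers Slc25a23, Slc25a24 and Slc25a25 exchange ATP-magnesium for phosphate and set the size of the matrix nucleotide pool. Slc25a24 was at 9.40, 9.29 and 9.44 in KO and 9.63, 9.27 and 9.42 in WT (difference -0.061). Slc25a23 measured 7.58, 8.27 and 8.04 in KO and 7.94, 7.64 and 7.43 in WT. Its 2 highest values were KO arrays, but KO replicate 1 lay within the WT range, and the difference of 0.29 (SE 0.19, limma adjusted p = 0.715) was among the least precise in the family. Leaving out KO replicate 2 lowered the difference to 0.14, and leaving out KO replicate 1 raised it to 0.49. It was 0.18 with WT replicate 3 left out. Slc25a25 gave 0.030. The remaining member of the adenine nucleotide group, Slc25a41, was below the reference and gave -0.031.

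The phosphate carrier had little spread. Slc25a3 measured 13.02, 12.97 and 13.02 in KO and 13.09, 13.12 and 13.10 in WT, with every KO array below every WT array. The difference was small, -0.10 (SE 0.069), and did not pass (limma adjusted p = 0.741). It kept its sign under every alternative tried, from -0.11 to -0.055.

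Of the uncoupling proteins and their relatives 5 of 6 listed genes were measured, with 3 higher and 2 lower KO means and a median difference of 0.013. Ucp1 was at 5.66, 5.89 and 5.83 in KO and 5.70, 5.81 and 5.83 in WT, and its difference of 0.013 turned sign under some alternatives. Ucp3, the muscle form, was at 6.59, 6.51 and 6.73 in KO and 6.62, 6.73 and 6.72 in WT. Both stayed below the reference on all arrays. Slc25a30 had the highest signal of the group, at 9.61 to 9.71 in KO and 9.67 to 9.83 in WT, and Slc25a14 and Slc25a27 lay at 7.15 to 7.51.

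Carriers of citrate and other carboxylates were bright apart from Slc25a21. Slc25a1, which exports citrate for fatty acid and sterol synthesis, measured 11.35, 11.27 and 11.37 in KO and 11.46, 11.42 and 11.32 in WT (difference -0.068, SE 0.076). Slc25a11, a part of the malate-aspartate shuttle, was at 11.60, 11.55 and 11.39 in KO and 11.62, 11.44 and 11.36 in WT (0.040, SE 0.097). In both the genotypes overlapped, and the sign of Slc25a11 turned without KO replicate 1 (-0.0038) and without WT replicate 3 (-0.017). Slc25a10, the dicarboxylate carrier, gave 0.070 and the oxodicarboxylate carrier Slc25a21, below the reference, -0.0058.

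The aspartate/glutamate carriers Slc25a12 (aralar) and Slc25a13 (citrin) are paralogs that feed the same shuttle, and their differences had opposite signs. Slc25a12 measured 11.12, 11.41 and 11.25 in KO and 11.16, 11.04 and 10.96 in WT, with KO replicate 1 inside the WT range. The difference was 0.21 (SE 0.097, 95% interval -0.014 to 0.43, limma adjusted p = 0.581). Slc25a13 measured 9.45, 9.11 and 9.07 in KO and 9.49, 9.49 and 9.38 in WT, with KO replicates 2 and 3 the lowest, and gave -0.24 (SE 0.11, 95% interval -0.50 to 0.0073, limma adjusted p = 0.565). Neither passed.

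Within each array the log2 ratio of Slc25a12 to Slc25a13 was 1.67, 2.30 and 2.18 in KO and 1.66, 1.55 and 1.58 in WT. The genotypes did not overlap, although KO replicate 1 lay just above WT replicate 1, and after quantile normalization they overlapped (exact permutation p = 0.2). The mean ratio was 2.05 ± 0.33 (SD, n = 3) in KO and 1.60 ± 0.061 (SD, n = 3) in WT, a difference of 0.45. The exact two-sided permutation test gave p = 0.1, the smallest that 3 against 3 arrays allow (adjusted p = 0.371 over 13 pairs). Leaving out single arrays moved this difference between 0.33 and 0.64.

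Such ratios were computed for 13 pairs of related carriers, chosen with earlier results of these data known, and 1 further pair reached p = 0.1 in the exact permutation test. The ratio of Slc25a16 to Slc25a42, carriers linked to coenzyme A, was 1.64, 1.60 and 1.64 in KO and 1.48, 1.25 and 1.17 in WT, a difference of 0.33 (adjusted p = 0.371). Here the KO arrays were close together and WT replicate 1 lay nearest to them. The ratio of Slc25a4 to Slc25a5 was -1.71, -1.92 and -1.70 in KO and -1.64, -1.80 and -1.68 in WT (difference -0.064, exact permutation p = 0.5). That of the mitoferrins Slc25a37 and Slc25a28 was 0.92, 0.91 and 0.99 in KO and 0.75, 0.90 and 0.92 in WT (0.082, exact permutation p = 0.2). The difference for Slc25a24 over Slc25a23 was -0.36, carried by KO replicates 2 and 3 (exact permutation p = 0.3). The other 8 pairs differed by -0.20 to 0.11, with exact permutation p of 0.2 to 0.8.

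**Figure D3:**
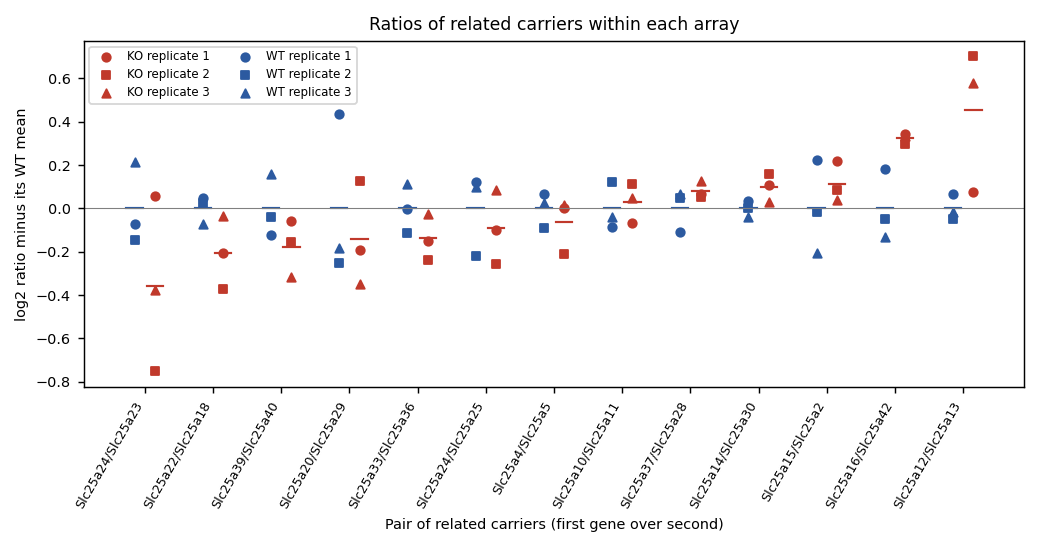
Log2 ratio of each of 13 carrier pairs within an array, minus the WT mean of that ratio (vertical axis); symbols are arrays, red for KO and blue for WT, and short lines are group means. The genotypes are apart for Slc25a12/Slc25a13 and Slc25a16/Slc25a42 and overlap for the others.

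The other amino acid carriers and their relatives showed differences of -0.19 to 0.19. Slc25a15, the ornithine carrier of the urea cycle, measured 10.17, 10.16 and 10.19 in KO and 10.25, 9.92 and 9.78 in WT, so the KO arrays were nearly equal and WT replicate 1 exceeded them (difference 0.19, SE 0.12, but 0.086 without WT replicate 3 and 0.32 without WT replicate 1). Slc25a45, a relative of the carnitine carriers, measured 9.64, 9.54 and 9.53 in KO and 9.93, 9.64 and 9.67 in WT (-0.18, SE 0.096, but -0.085 without WT replicate 1). Slc25a20, which imports acylcarnitines for fatty acid oxidation, was at 9.24 to 9.57 in KO and at 9.32 to 9.90 in WT, where replicate 1 was again the highest. Of the 13 genes in this group, the aspartate/glutamate carriers included, 6 had a higher and 7 a lower KO mean, and the median was -0.0019.

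There were 8 measured nucleotide and cofactor carriers, with 3 higher and 5 lower KO means and a median of -0.016. Slc25a42, which brings coenzyme A into the matrix, had the lowest p of the family. It measured 8.43, 8.36 and 8.42 in KO and 8.61, 8.66 and 8.70 in WT. All KO arrays were lower, the means were 8.40 ± 0.041 and 8.66 ± 0.048 (SD, n = 3 each), and the difference was -0.25 (SE 0.072), or 1.19-fold lower. It was not called (limma adjusted p = 0.323), and the difference stayed between -0.28 and -0.23 under every alternative tried, with adjusted p of 0.119 to 0.919.

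Slc25a51, the NAD+ carrier, had a higher KO mean. It measured 10.77, 11.07 and 11.06 in KO and 10.80, 10.71 and 10.75 in WT. KO replicates 2 and 3 were above all WT arrays and KO replicate 1 was within their range (difference 0.22, SE 0.098, limma adjusted p = 0.573). Slc25a32, which carries folate or FAD, measured 9.12, 8.83 and 8.98 in KO and 9.22, 9.09 and 9.11 in WT (-0.16, SE 0.092), with KO replicate 1 inside the WT range. Slc25a17 was at 10.94, 10.97 and 10.78 in KO and 11.07, 10.87 and 10.81 in WT, and Slc25a36 at 11.35, 11.42 and 11.29 against 11.37, 11.35 and 11.26. In these last genes the genotypes overlapped on the main probe sets. On the second probe set of Slc25a36 all KO arrays (10.66, 10.785 and 10.787) lay below all WT arrays (10.81, 10.791 and 10.88), with a difference of -0.079 (limma adjusted p = 0.834) where the main one gave 0.025. By probe set number the second one lay after the members of chromosome 9, where RefSeq places Slc25a36, and before those of X. The main one was numbered away from the members of chromosome 9. Probe coordinates were not available here, so the signal of the main one may not come from Slc25a36 alone.

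Carriers of iron, glutathione and glycine serve iron-sulphur cluster and haem formation. Slc25a37 (mitoferrin-1), the iron importer that red cell precursors depend on, measured 10.55, 10.56 and 10.68 in KO and 10.61, 10.65 and 10.44 in WT (difference 0.030, SE 0.086). Of 10 measured red cell markers 4 had a higher and 6 a lower KO mean, and Car1 was called higher in KO (7.39 against 6.65, limma adjusted p = 0.0307). Those below the olfactory receptor reference on all arrays included Klf1 at 6.06 in KO and 5.98 in WT, Gata1 at 6.41 in both and Alas2 at 6.64 and 6.65. Slc4a1 (7.64 in KO and 7.49 in WT) and Epor (7.21 and 7.33) lay above it. Car2 (12.41 and 12.79) and Tfrc (11.25 and 11.32) were bright, and the marker list as a whole averaged 7.65 to 7.66 in KO and 7.56 to 7.67 in WT. The part of red cell precursors in the carrier values was not tested. Slc25a28 (mitoferrin-2) measured 9.63, 9.66 and 9.69 in KO and 9.86, 9.75 and 9.52 in WT (-0.052, SE 0.098).

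Slc25a39, a glutathione importer, measured 10.59, 10.55 and 10.39 in KO and 10.62, 10.63 and 10.69 in WT, with all KO arrays lower (difference -0.13, SE 0.081, limma adjusted p = 0.704). Its paralog Slc25a40 gave 0.045 on its main probe set and 0.0079 on the other. Slc25a38, which brings glycine in for haem synthesis, measured 9.41, 9.40 and 9.61 in KO and 9.75, 9.47 and 9.37 in WT (-0.054, SE 0.11). In 8 measured genes of haem synthesis, 6 had a lower KO mean and the median difference was -0.061, with 0 members at an unadjusted p under 0.05 in limma.

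Less defined members held the family's largest difference. Slc25a53 measured 8.999, 9.62 and 8.97 in KO and 9.15, 8.74 and 8.39 in WT. KO replicate 2 was the highest and WT replicate 3 the lowest, WT replicate 1 exceeded both other KO arrays, and the difference of 0.44 (SE 0.22, 1.35-fold) did not pass (limma adjusted p = 0.623). Without KO replicate 2 it fell to 0.23 and without WT replicate 1 it rose to 0.63. Slc25a43 was at 7.38, 7.67 and 7.43 in KO and 7.40, 7.48 and 7.10 in WT (0.17, SE 0.12, but 0.081 without KO replicate 2 and 0.056 without WT replicate 3). Slc25a54 measured 4.62, 4.57 and 4.50 in KO and 4.67, 4.82 and 4.71 in WT (-0.17, SE 0.078, limma adjusted p = 0.575), below the olfactory receptor reference throughout.

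Among the members Slc25a5, Slc25a14, Slc25a43 and Slc25a53 lie on the X chromosome in RefSeq. On WT replicate 2, the array of a male donor, each of these 4 was within the range of the other arrays on its main probe set. Slc25a5 was at 13.21, Slc25a14 at 7.20, Slc25a43 at 7.48 and Slc25a53 at 8.74. The main probe set of Slc25a5 may not lie at the gene. On the probe set of Slc25a5 numbered beside Slc25a43, WT replicate 2 was at 13.22, within the 13.13 to 13.24 of the others. On the dimmest of its 3 probe sets, numbered away from the X members, WT replicate 2 was the highest array, at 12.79 against 12.64 to 12.75.

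Arrays of 1 genotype differed among themselves. WT replicate 1 was the highest array for 16 of the 48 members (33.3%, against 21.9% of all probe sets) and WT replicate 3 the lowest for 16 (33.3%, against 18.8%). KO replicate 2 was the highest for 13 (27.1%, against 17.4%) and the lowest for 10 (20.8%, against 17.0%). Averaged over the 48 members, the deviation from the WT mean was -0.012, 0.039 and -0.012 in KO and 0.052, -0.0024 and -0.049 in WT, so all KO arrays lay between the highest and the lowest WT array. The median SD within a genotype was 0.10 in KO and 0.11 in WT over the members, and 0.090 and 0.12 over all probe sets.

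Other mitochondrial genes are given beside these values from the same fit, without a test between lists. In KO, 15 of 15 measured ATP synthase genes averaged lower (median -0.095), and 1 was lower at an unadjusted p under 0.05. Their mean deviation was 0.0012, -0.16 and -0.18 in KO replicates 1, 2 and 3 and -0.023 to 0.032 in WT. Carriers need the import machinery, and of its 15 measured genes 13 had a lower KO mean (median -0.10) and 2 were lower at an unadjusted p under 0.05. These were Tomm20, a receptor of the outer membrane (-0.37, SE 0.091, limma adjusted p = 0.243), and Tomm7 (-0.31, SE 0.12, limma adjusted p = 0.452). Tomm70a, the receptor that takes up carrier precursors, gave -0.088.

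Among 16 measured transporters and channels outside the family, 12 had a lower KO mean (median -0.060). Vdac1, the outer membrane channel through which ADP and ATP pass, measured 11.95, 11.69 and 11.78 in KO and 12.001, 12.13 and 12.03 in WT (-0.24, SE 0.089, limma adjusted p = 0.448). Sfxn3, a serine transporter, gave 0.27 (SE 0.12, limma adjusted p = 0.539). Of 10 one-carbon and folate genes 8 had a lower KO mean (median -0.13), and of 10 genes of urea cycle, proline and aspartate metabolism 7 did (median -0.077). In the one-carbon list 2 were lower at an unadjusted p under 0.05, Gcsh (-0.40, SE 0.12, limma adjusted p = 0.346) and Dld (-0.24, SE 0.082, limma adjusted p = 0.409). Among all probe sets 55.8% had a lower KO mean and 4.73% were lower at that unadjusted threshold. No member of these lists passed over all probe sets, and whether the carriers differ from them was not tested.

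**Figure D4:**
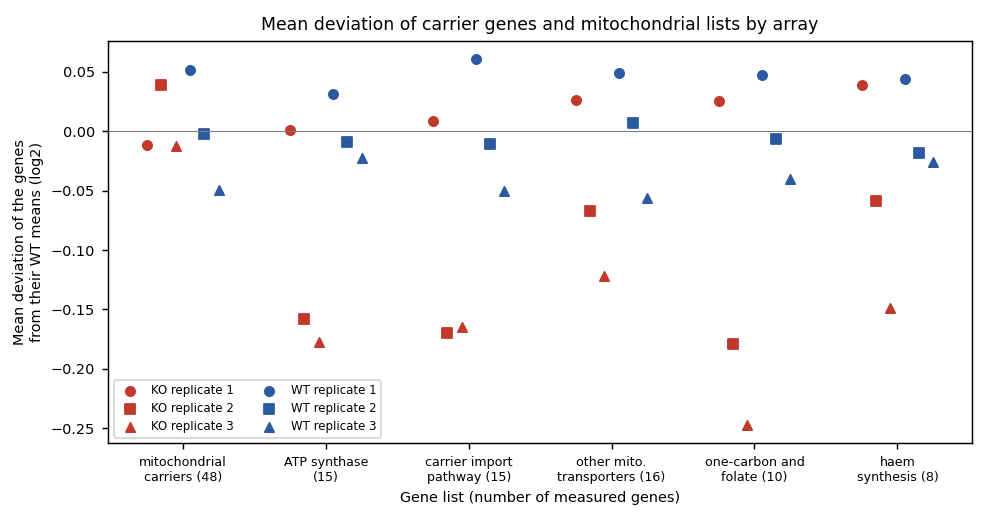
Mean deviation of the genes of a list from their WT means (log2, vertical axis) on each array, for the 48 carriers and for 5 other mitochondrial gene lists; red symbols are KO and blue symbols WT arrays. For the carriers all KO arrays fall between the WT arrays, and for ATP synthase KO replicates 2 and 3 lie at -0.16 and -0.18.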

How the data were processed

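RNA of 6 sorted B cell samples was measured on biotin-labelled Affymetrix arrays. Per the submitters' processing notes, the authors summarised the probe sets by RMA with Affymetrix Expression Console 1.1, and the range of the deposited values shows a log2 scale; options and annotation are not given in the sources used here. RMA equalises array distributions and compresses changes of dim transcripts. Arrays have no read depth; precision is limited by their number.

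Of 35556 rows, 21789 had exactly 1 symbol in the platform annotation and were tested, 1621 had several and 12146 were unnamed here. The genotypes were compared on these values in R 4.3.3 with limma 3.58.1 (lmFit, eBayes, prior degrees of freedom 4.33), without covariate or filter, with Benjamini-Hochberg adjustment over all 21789 probe sets at a threshold of 0.05; the fit was tested on simulated data. Ratios of paralogs were compared by exact permutation over arrays. Members and lists were chosen with earlier results of these data known. Genes with values per array are the 8 brightest, those at an unadjusted p under 0.05, the 6 highest and 6 lowest moderated t, and the ADP/ATP, uncoupling, iron, glycine and glutathione carriers; others named with array values or differences were chosen after their values were seen. Alternatives were quantile normalization, median centring, a filter below the 40th percentile, all rows, 1 probe set per gene, another prior, array weights, the replicate block, each array left out, averaged probe sets per gene and a threshold of 0.1.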

Additional observations from a re-analysis of the deposited data

How the results depend on the processing

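The count of 0 carriers past the adjusted threshold held under every alternative run. At an unadjusted p under 0.05 in limma, quantile normalization gave 1 higher and 4 lower carriers, the trended and robust prior 2 and 3, array weights 5 and 3, and the replicate block 0 and 2. Leaving out single arrays gave 0 to 4 higher and 1 to 3 lower. The median difference stayed within -0.017 and 0.026. Over all probe sets the 26 calls became 17 with quantile normalization, 69 over all rows, 40 with the other prior, 150 with array weights, 58 at a threshold of 0.1, and 5 to 82 with single arrays left out (82 without KO replicate 1, 5 without KO replicate 2 or 3, 8 without WT replicate 1 or 3).

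Of 371 values of 25 named carriers under alternatives, 348 kept their sign and 23 turned it, in 9 genes whose differences were near 0; the cause was not tested. Slc25a5 was at 0.045 with quantile normalization and 0.0012 with median centring, Slc25a17 at 0.019, Slc25a38 at 0.015 and Ucp1 at -9e-04 with array weights, and Slc25a36 at -0.027 with the mean of its probe sets. With single arrays left out the ranges were -0.044 to 0.025 for Slc25a5, -0.017 to 0.11 for Slc25a11, -0.14 to 0.016 for Slc25a4, -0.0071 to 0.057 for Slc25a36, -0.071 to 0.055 for Slc25a17, -0.034 to 0.077 for Ucp1, -0.033 to 0.072 for Slc25a37, -0.15 to 0.024 for Slc25a28 and -0.13 to 0.056 for Slc25a38. Ratios that turned sign were Slc25a4/Slc25a5 (-0.11 to 0.0086), Slc25a10/Slc25a11 (-0.012 to 0.092) and Slc25a20/Slc25a29 (-0.27 to 0.078). The exact permutation p of Slc25a12/Slc25a13 was 0.2 after quantile normalization.

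Deviations of same-numbered KO and WT arrays correlated across probe sets at 0.10, 0.00 and 0.27, and those of differently numbered arrays at -0.25 to 0.13. The highest value was that of KO and WT replicate 3, so these values do not settle whether same-numbered samples are linked. The main fit used no pairing. With the replicate block 0 carriers passed after adjustment. The filter kept 39 of 48 carriers. Dim carriers near the olfactory receptor level limit what the arrays can show.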
